A study of Saccharomyces cerevisiae with 8 samples.

Results

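The subject is the dose series of cycloheximide (CHX), 3 of the 8 libraries of a study of purified *Saccharomyces cerevisiae* 80S ribosomes. Dose differences were taken only between these 3. Rates of the other libraries are given beside some nucleotides, and the section on flagged results sets CHX against the libraries without drug. The 3 CHX libraries were chosen by their titles, which give CHX at 10, 50 and 1000 µM, and there was 1 library per dose. In each, ribosomes were preincubated with the drug in vitro and then treated with 90 mM dimethyl sulfate (DMS) for 8 min. The other 5 libraries were ribosomes without DMS, with DMS and no addition, with DMS and dimethyl sulfoxide (DMSO), and with DMS and agelastatin A at 0.5 or 1.0 mM. The labels name neither the yeast strain, the solvent of CHX nor the ribosome preparation behind each library, so doses, preparations and library handling cannot be told apart. The deposited value is the mutation rate of each of 5475 rRNA nucleotides, that is the share of its reads that mismatch, printed here as a percentage. Since the read depth behind the rates is unknown, they carry no interval. With 1 library per dose no difference has a replicate check, and no p-value is given.

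CHX stops elongation from a pocket in the E site of the 60S subunit, where the 3′ end of the deacylated tRNA would sit before it leaves the ribosome. DMS adds a methyl group to exposed A and C on the side that pairs with other bases, and reverse transcription across it leaves a mismatch in the cDNA. A base that a bound drug covers on that side can be read as a lower mutation rate.

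Of the 2529 A and C nucleotides, the 514 with a mean of 0.5% or more across the 7 libraries with DMS were compared. They are 381 A and 133 C, and 292 belong to 25S, 199 to 18S, 15 to 5.8S and 8 to 5S rRNA. Differences are on the scale log2(rate + 0.001) with the rate as a fraction, after each library's median over these nucleotides was subtracted (centred), and always as the higher dose minus the lower. A difference was counted from 1.5-fold up. A dose step was counted as lower or higher from a size of 0.1, which is 1.07-fold, and as constant below that.

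The sequences below are 21 nucleotides of rRNA from the deposited table, 5′ to 3′, with the nucleotide under discussion in capitals at the centre. C2764 and C93 lie in the CHX pocket of the E site, C959 is a second cytidine that earlier results of these data had linked to CHX, and A542, A1005 and A579 had the largest difference toward higher rates between 10 and 1000 µM among the nucleotides higher in both steps.
25S C2764: gccuaucgauCcuuuaguccc
25S C93: uuaguaacggCgagugaagcg
25S C959: cgaaguuuccCucaggauagc
18S A542: uuaacgaggaAcaauuggagg
18S A1005: augaucagauAccgucguagu
18S A579: cagccgcgguAauuccagcuc
In sacCer3, which is assembly R64, these stretches lie on the minus strand of chromosome XII. Those of 25S fall in RDN25-1 (451786 to 455181), at chrXII:452408-452428 for C2764, chrXII:455079-455099 for C93 and chrXII:454213-454233 for C959. Those of 18S fall in RDN18-1 (455933 to 457732), at chrXII:457181-457201 for A542, chrXII:456718-456738 for A1005 and chrXII:457144-457164 for A579. Positions were counted from the gene ends, without the genome sequence. Both genes are the first listed copies of a repeat, and the rates do not tell the copies apart.

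C2764 of 25S rRNA was the nucleotide whose rate kept dropping over the whole dose range by a wide margin. It had 0.724% at 10 µM, 0.234% at 50 µM and 0.0633% at 1000 µM. Its rates were in dose order, and 10 µM already lay far below the 12.9% with no addition and 12.7% with DMSO. It passed the filter on the mean rate through the libraries without CHX. On the centred log2 scale its difference was -1.50 at 50 minus 10 µM, -0.95 at 1000 minus 50 µM and -2.45 at 1000 minus 10 µM. It was the 1 nucleotide of 514 (0.195%) lower by at least 1.5-fold in each of the 3 comparisons. At 50 over 10 µM and at 1000 over 50 µM, 0 nucleotides (0%) were higher by that size. The step from 50 to 1000 µM is under 2-fold with 0.001 added, and it was -0.17, under 1.5-fold, with 0.01 added, which is above all 3 rates.

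Taken as plain ratios of rates, the 10 µM rate of C2764 was 3.10 times the 50 µM rate, over a 5-fold change in dose. The 50 µM rate was 3.69 times the 1000 µM rate, over a 20-fold change in dose. The 10 µM rate was 11.4 times that at 1000 µM. C2764 had 0.112% in the library without DMS, and after this was subtracted 0.612 percentage points were left at 10 µM and 0.122 at 50 µM, a ratio of 5.02. At 1000 µM the rate was below that without DMS, by 0.0483 percentage points, so no ratio after subtraction can be given for that dose.

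The place of C2764 among other cytidines shows the same order. Of the 1076 cytidines of rRNA, C2764 had the rank 110 from the top at 10 µM, 214 at 50 µM and 764 at 1000 µM, against 8 with no addition and with DMSO. The rates of 89.9%, 80.2% and 29.0% of the other cytidines were lower at the 3 doses. The median of the other cytidines was 0.0939%, 0.0882% and 0.0913%. C2764 was therefore above this median at 10 and 50 µM and below it at 1000 µM.

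**Figure D1:**
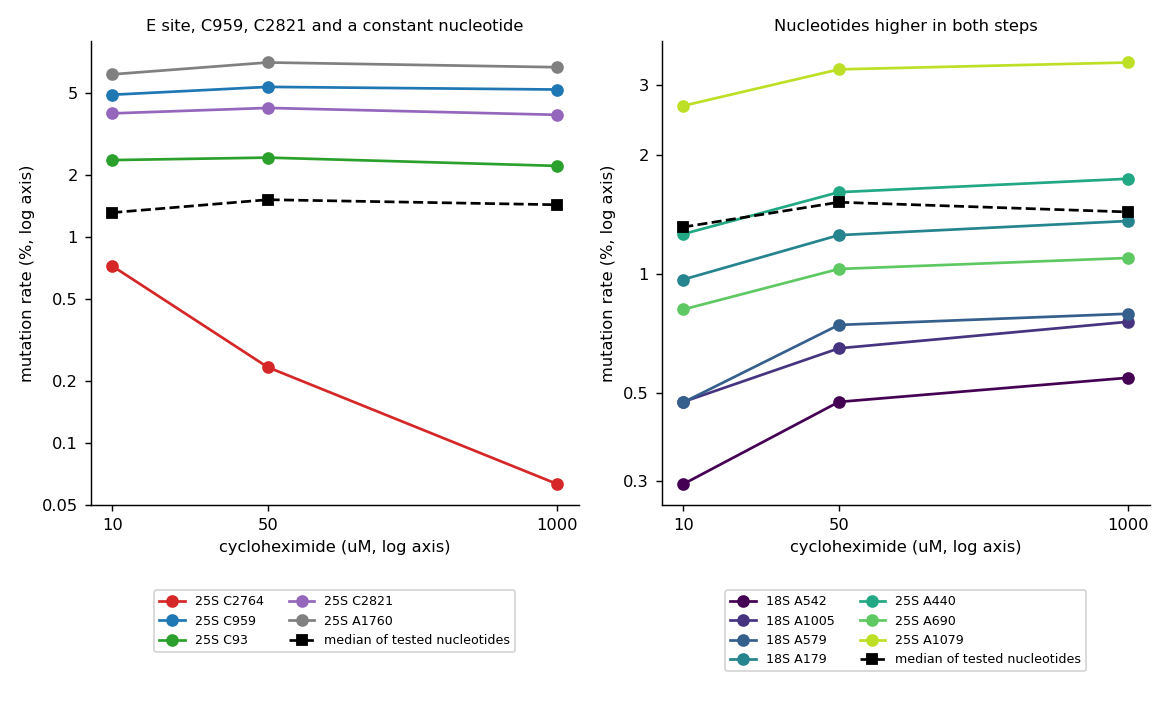
Mutation rate (percent, log axis) against CHX dose (µM, log axis), 1 library per dose. On the left C2764 is lower at each dose, from 0.724% at 10 µM to 0.0633% at 1000 µM, while C959, C93, C2821 and A1760 of 25S rRNA run nearly level. On the right are the 7 nucleotides higher in both steps. The dashed line with squares is the median of the 514 tested nucleotides, which is highest at 50 µM.

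The reactive nucleotides beside C2764 did not follow it. Of the 20 within 10 positions, 13 had under 0.1% at every dose, where the added constant leaves little room for a difference. Of the 20, 0 differed by 1.5-fold between 10 and 1000 µM. Among all 514 tested only 0.195% were lower and 0.195% higher by that size, so this 0 says nothing about the window. A2762, 2 positions upstream in gccuaucgauCcuuuaguccc, had 0.479%, 0.521% and 0.528% at the 3 doses, with a centred difference of -0.0029 between 10 and 1000 µM. It differed little over the doses that set C2764 apart. These rates are above the 0.293% of the library with no addition and the 0.357% with DMSO, and below the 0.5% filter on the mean rate. A2769, 5 positions downstream, had 0.236%, 0.257% and 0.276%. C2772, 8 positions downstream and the 1 other tested nucleotide of the window, had 1.17%, 1.09% and 1.204%, lower at 50 than at 10 µM (-0.29) and higher again at 1000 µM (0.21).

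**Figure D2:**
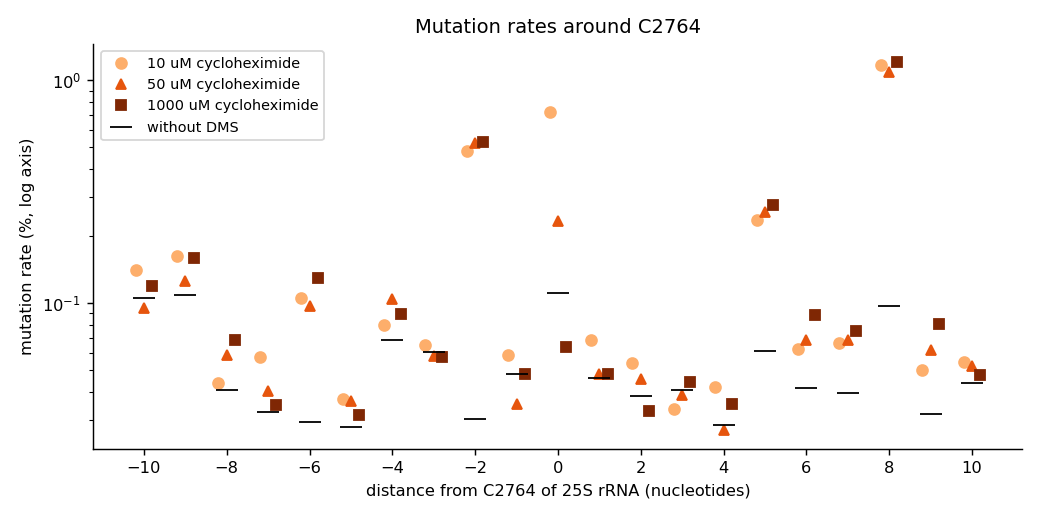
Mutation rate (percent, log axis) of the nucleotides within 10 positions of C2764 at 10, 50 and 1000 µM CHX, with the rate without DMS as black bars. The 3 doses are spread out at position 0 and lie close together at the other reactive positions, -2 (A2762), 5 (A2769) and 8 (C2772).

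C93, the second tested member of the CHX pocket list, differed little over the doses. It had 2.36% at 10 µM, 2.43% at 50 µM and 2.22% at 1000 µM. On the centred scale it was lower at 50 than at 10 µM (-0.16) and constant after that (-0.05), and uncentred its rates at the 3 doses lay within 1.10-fold of each other. G92, U2763, G2793 and G2794, whose base-pairing edge DMS reads poorly, were not tested and had between 0.0352% and 0.191% at the 3 doses. G92 had 0.176%, 0.112% and 0.139%, and G2793 had 0.119%, 0.142% and 0.191%, near the 0.1 percentage points that the added constant amounts to. The median centred difference of the 2 tested members between 10 and 1000 µM was -1.33, against -0.03 over all 514, and it is the mean of C2764 and C93.

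C959 of 25S rRNA was constant over the doses after median centring. It had 4.91% at 10 µM, 5.36% at 50 µM and 5.202% at 1000 µM, against 9.21% with no addition. Its order over the doses was that of the library medians, and its ratio to them was 3.73, 3.53 and 3.62, against 5.30 with no addition. Its centred differences were -0.07, 0.03 and -0.04 for 50 minus 10, 1000 minus 50 and 1000 minus 10 µM, and their signs turned without centring (0.12, -0.04 and 0.08). Its distance from the library with no addition was therefore nearly as wide at 10 as at 1000 µM. C961, 2 positions on in cgaaguuuccCucaggauagc, had 0.714%, 0.746% and 0.676% (-0.19 between 10 and 1000 µM), and C969, at 2.10% without DMS, had 2.42%, 2.37% and 2.38%. Within 10 positions of C959, 13 of 20 nucleotides differed by under 0.1 between 10 and 1000 µM, against 53.9% of all tested, but only 2 of the 20 were tested and 9 had under 0.1% at every dose.

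Among all tested nucleotides, 231 (44.9%) were constant in each step, and 184 (35.8%) were constant from 10 µM on, with all 3 differences under 0.1. These 184 comprised 146 of 381 A (38.3%) and 38 of 133 C (28.6%). By mean rate they were 26.3% of the nucleotides at 0.5 to 1%, 32.6% at 1 to 2%, 49.6% at 2 to 5%, 33.3% at 5 to 10%, 38.9% at 10 to 20% and 60.0% above 20%. Lower rates carry a larger share of counting error at a given depth, and its part in these shares was not tested. Of those with a mean of at least 5%, the 5 most even were A1760, A1656 and A2357 of 25S and C139 and A188 of 18S. A1760 had 6.16%, 7.04% and 6.67%, and C139 had 19.5%, 22.4% and 21.4%. In both, as in the library medians, the raw rate was lowest at 10 µM and highest at 50 µM.

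Apart from C2764, 3 nucleotides were lower in both steps, all in 18S rRNA, and their differences were small. In all 4 of 514 (0.778%) met this rule, 3 C and 1 A. C79 had 1.59% at 10 µM, 1.59% at 50 µM and 1.39% at 1000 µM (-0.30 between 10 and 1000 µM). C1646, in helix 44 beside the decoding centre, had 1.14%, 1.17% and 1.01% (-0.28). A1782, one of the adjacent dimethyladenosines near the 3′ end of 18S, had 11.7%, 12.04% and 10.4% (-0.28), and it had 11.0% without DMS. In the raw rates of these 3, 50 µM was the highest, so their first step was lower only after centring. Without centring C2764 was the 1 nucleotide lower in both steps.

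On the other side 7 nucleotides (1.36%) met the rule in both steps, and all were adenosines: A542, A1005, A579 and A179 of 18S and A440, A690 and A1079 of 25S. A542 had 0.295%, 0.476% and 0.547% at 10, 50 and 1000 µM. It was the 1 of 514 (0.195%) higher by at least 1.5-fold at 1000 than at 10 µM (0.60). The next nucleotide, A579, was just outside that size at 0.52, with 0.474%, 0.744% and 0.794%. A579 lies in the conserved loop of 18S rRNA that forms part of the decoding centre, 2 positions after G577. A1005, in a conserved loop of the platform of the small subunit, had 0.476%, 0.650% and 0.758% (0.46).

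The choice of these 7 makes 10 µM the lowest of their 3 doses after centring. Their membership depends on the settings. All 7 met the rule with centring within bins of rate and after the rate without DMS was subtracted. Without centring 4 did (A542, A1005, A179 and A440), so A579, A690 and A1079 were lost. With no filter 2 did (A542 and A1005), with a step of 0.2 only A542, and with 0.01 added 0. At 1000 µM, A542 and A579 had 0.547% and 0.794%, against 0.625% and 0.723% in the library with no addition. A542 has a rate near the filter, and its call was lost with 0.01 added, with A alone, with centring within bins of rate or within each base, and at 2-fold. Of its neighbours, A544 had 2.01%, 2.47% and 2.68% (0.28), A534 had 6.10%, 7.10% and 7.12% (0.10), and the rest within 10 positions were not tested.

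**Figure D3:**
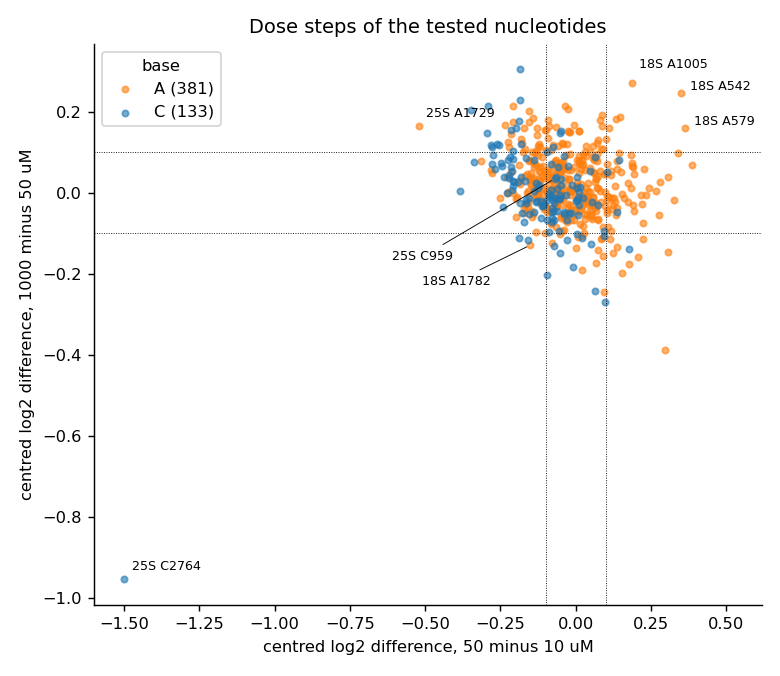
Centred log2 difference of each of the 514 tested nucleotides in the first step (50 minus 10 µM, horizontal) and the second (1000 minus 50 µM, vertical). Dotted lines mark 0.1. C2764 lies alone at -1.50 and -0.95. The 50 µM library enters both axes with opposite sign.

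Most other differences were confined to one step. In the first step 157 nucleotides were lower and 68 higher by at least 0.1, and in the second 37 and 79. This split depends on the centring. With libraries centred on the median log2 difference between them, it was 98 lower and 118 higher in the first step and 46 and 64 in the second. Without centring it was 7 and 346, then 152 and 17. Under the median centring 116 (22.6%) were lower and then constant, 51 (9.92%) higher and then constant, 23 (4.47%) constant and then lower, and 35 (6.81%) constant and then higher. Those that turned back were 37 (7.2%) lower and then higher and 10 (1.95%) higher and then lower. The clearest of these, chosen after its values were seen, was A1566 of 25S, with 0.509%, 0.756% and 0.521%. Of the 3 doses 50 µM was the high one, and the libraries with no addition and with DMSO had 0.835% and 0.870%.

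At both ends of the ranking by 1000 minus 10 µM, several nucleotides that were not lower or higher in both steps differed mainly between 10 and 50 µM. C2374 of 25S, in domain V, had 1.07%, 0.922% and 0.873% (-0.38, of which -0.39 lay in the first step). A1729 of 25S had 0.897%, 0.696% and 0.746% (-0.36), and it turned back, with -0.52 in the first step and 0.16 in the second. C1556 of 25S was an exception, with 0.457%, 0.497% and 0.392% and its larger step between 50 and 1000 µM (-0.20). On the other side A2702 of 25S had 1.07%, 1.65% and 1.64%, higher by 0.39 in the first step and by 0.07 in the second. A1887 and A1571 of 25S ran alike, with 0.469%, 0.724% and 0.737%, and with 0.684%, 1.01% and 0.981%. Of the 10 lowest differences 7 were cytidines, which are 25.9% of the tested nucleotides, and the 10 highest were all adenosines, which are 74.1%.

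**Figure D4:**
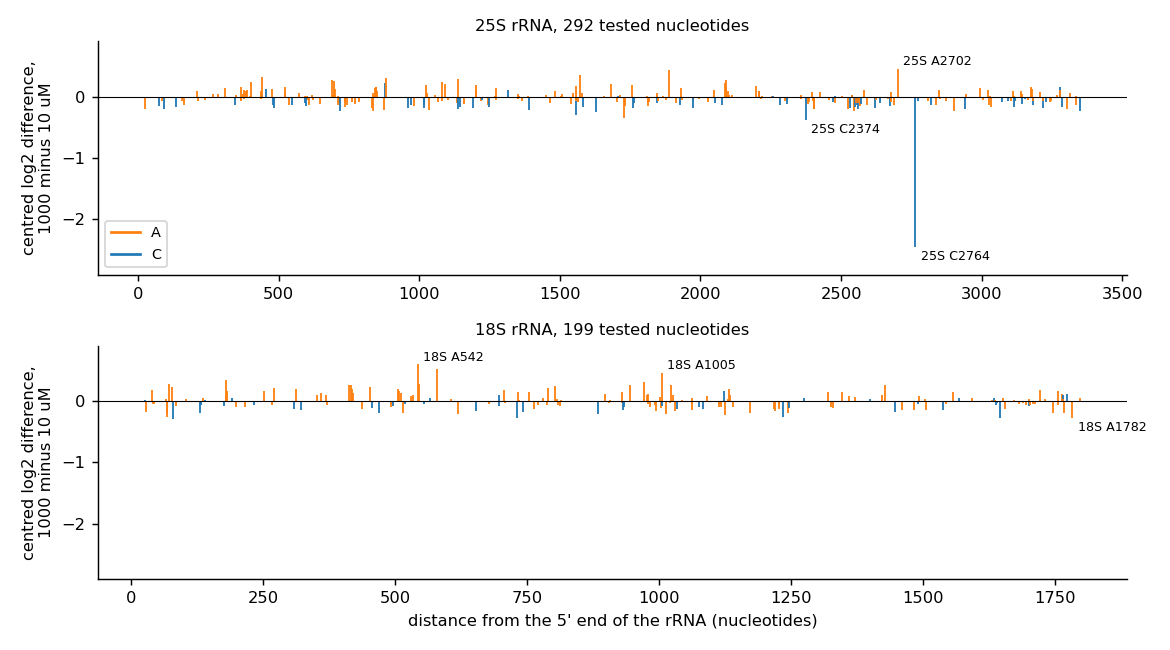
Centred log2 difference, 1000 minus 10 µM, of the tested nucleotides along 25S (above) and 18S rRNA (below), with A in orange and C in blue. C2764 at -2.45 stands out from the other nucleotides, which lie between -0.38 (C2374) and 0.60 (A542).

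Adenosines and cytidines differed in their medians. Over the tested A the median rate was 1.22%, 1.44% and 1.37% at the 3 doses, and over the tested C it was 1.70%, 1.94% and 1.72%. Without C2764, the median centred difference at 50 minus 10 µM was -0.03 for A (SD 0.12 over nucleotides) and -0.09 for C (SD 0.11). At 1000 minus 50 µM it was 0.01 for A and -0.0023 for C. At 1000 minus 10 µM it was -0.0033 for A and -0.11 for C. With A and C centred apart, a choice made after the data were seen, A542 was not past 1.5-fold.

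The library-wide rate of the tested nucleotides did not follow dose. They had a median rate of 1.31% with 10 µM, 1.52% with 50 µM and 1.44% with 1000 µM CHX, so the middle dose was the highest. Rates were higher at 50 than at 10 µM for 463 nucleotides (90.1%) and higher at 1000 than at 50 µM for 115 (22.4%). The most common order, 10 below 1000 below 50 µM, was found in 289 nucleotides (56.2%), while 93 (18.1%) were in dose order upward and 29 (5.64%) in dose order downward. The median uncentred log2 difference was 0.14 for 50 minus 10, -0.07 for 1000 minus 50 and 0.08 for 1000 minus 10 µM. With no filter, over all 2529 A and C, the log2 library medians were in dose order, with differences of 0.025 and 0.028 in the first and second step.

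The median difference had the same sign in each rRNA and varied in size between regions. For 50 minus 10 µM, 18S had a median of 0.16, 25S of 0.14, 5.8S of 0.12 and 5S of 0.13. For 1000 minus 50 µM the medians lay between -0.09 (5S) and -0.06 (5.8S). Over the domains of 25S it ran from 0.10 in domain V to 0.19 in domains I and IV for the first step. For 1000 minus 10 µM it ran from 0.02 in domain V of 25S to 0.14 in the 5′ domain of 18S, and it was 0.11 over A and 0.0058 over C. Across bins of the mean rate, the median for 50 minus 10 µM was 0.16 at 0.5 to 1% and 0.11 above 20%. Without C2764, the SD of the centred differences in the first step was 0.15 at 0.5 to 1%, 0.13 at 1 to 2%, 0.10 at 2 to 5%, 0.09 at 5 to 10% and at 10 to 20%, and 0.05 above 20%. With C2764, the bin from 5 to 10% had the widest SD, 0.23.

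**Figure D5:**
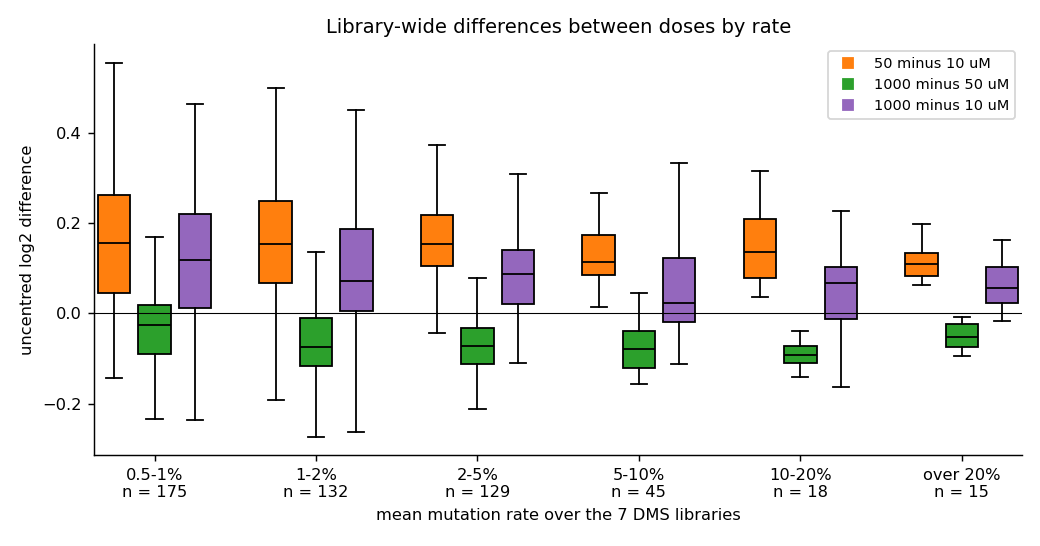
Uncentred log2 difference between doses in bins of the mean rate over the 7 DMS libraries (box, quartiles; line, median; whiskers, up to 1.5 times the quartile range; points beyond not drawn). In every bin the median of 50 minus 10 µM is above 0 and that of 1000 minus 50 µM below 0.

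Nucleotides that DMS reads poorly had another order. The 2946 G and U had a median rate of 0.0688% with 10 µM, 0.0625% with 50 µM and 0.0691% with 1000 µM, against 0.0477% without DMS. Theirs was lowest at 50 µM, where the tested A and C were highest. Over all 1076 C, tested or not, the medians were also lowest at 50 µM, with 0.0939%, 0.0884% and 0.0912%. Over all 1453 A they were 0.157%, 0.175% and 0.174%.

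Bases that yeast modifies on the base-pairing edge carry a rate without DMS as well. The m1A nucleotides of 25S, A645 and A2142, had 86.2%, 86.6% and 86.1%, and 52.8%, 57.3% and 57.0%. The m3U nucleotides U2634 and U2843 had 65.9%, 66.7% and 65.9%, and 77.0%, 78.2% and 78.7%. U2843 was below the 82.6% to 83.8% of the other 4 DMS libraries at each dose. So were U1191 of 18S, with 81.7%, 80.4% and 81.3% against 82.97% to 83.1%, and A1781 of 18S, with 0.517%, 0.563% and 0.554% against 0.599% to 0.680%. These are raw rates. Over all 514 tested nucleotides the raw rate was the lowest of the 7 DMS libraries in 66.9% at 10 µM, 3.11% at 50 µM and 16.5% at 1000 µM. After centring, the lowest value of U1191 with CHX was 0.08 above its higher value without drug. Of the 6 tested members of this list 2 were constant, 1 (A1782) was lower in both steps and 0 were higher in both.

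In the other structural lists 0 tested members were lower or higher in both steps, rules that 0.778% and 1.36% of all 514 met, so a count of 0 in lists this small says nothing about them. In the peptidyl transferase centre, where peptide bonds form, 6 nucleotides were tested and 2 (A2401 and A2971) were constant. C2821 had 3.99%, 4.23% and 3.92% (-0.14 between 10 and 1000 µM), A2402 had 1.10%, 1.12% and 1.03% (-0.20), and A2404 had 6.43%, 6.54% and 6.03% (-0.21). The list's median was -0.11, against -0.03 over all 514. Against 35.8% of all 514, the constant members of the other lists were 2 of 2 in helix 69 between the subunits, 1 of 1 in the A loop (C2925) and 1 of 4 in the sarcin-ricin loop, the contact of elongation factors. A2255 of helix 69, under the filter, had 0.173%, 0.306% and 0.392% (0.73). A3027 of the sarcin-ricin loop had 4.82%, 5.202% and 4.77%. In the decoding centre A1755 had 1.37%, 1.598% and 1.69% (0.16) and A1756 had 1.54%, 1.604% and 1.601% (-0.06). A2398 of 25S had 2.65%, 2.86% and 3.04%, in dose order, and its centred differences were -0.09 and then 0.16.

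As whole profiles the 50 and 1000 µM libraries were the closest pair. Without C2764, the SD of the centred log2 difference over 513 nucleotides was 0.13 for 50 against 10 µM, 0.08 for 1000 against 50 µM and 0.14 for 1000 against 10 µM. Without C2764 and C2821, it was 0.10 between the 1.0 and 0.5 mM agelastatin A libraries, the other dose pair of the study. A difference of at least 1.2-fold was seen in 25 nucleotides at 50 against 10 µM, in 4 at 1000 against 50 µM and in 23 at 1000 against 10 µM.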

How the data were processed

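The authors deposited the mutation rate per rRNA nucleotide as a fraction, in one table of all 8 libraries. According to the labels' protocols, rRNA of DMS-treated ribosomes was fragmented and size-selected, and full-length cDNA made with TGIRT-III was circularised and amplified by PCR, so methylation is read as mismatches. Cutadapt, Bowtie2 and sacCer3 appear in the submitters' processing notes. Filters and depth limits are not stated there. PCR copies count as reads.

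Columns were matched to samples by title. Scripts in Python 3.11.15 (pandas 2.3.3, numpy 2.4.6, figures with matplotlib 3.10.9) computed log2(rate + 0.001), subtracted library medians and took differences between doses. The constant shrinks changes at low rates. The assignment of dose classes was checked on simulated rates. Their planted steps were larger than any seen here but those of C2764, and their spread was smaller than in these data. The check therefore does not tell how reliable the members of a class are. With 1 library per dose no significance test was made. The members, lists and thresholds were chosen with earlier results of these data known, and list positions were written from memory. Nucleotides named are those of the lists, up to 8 per direction past 1.5-fold and in both steps, the 5 most even, C959, A2398, and neighbours of C2764 and C959. The 10 at each end of the ranking, those that turned back and the neighbours of A542 were named after their values were seen.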

Additional observations from a re-analysis of the deposited data

Results flagged for a closer look

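Of 319 nucleotides with at least 0.3% at some CHX dose that were below the 0.5% filter or of another base, and so outside the comparisons, 3 (0.940%) had a higher centred rate in all 3 CHX libraries than in both DMS libraries without drug, by at least 1.2-fold. Of these A2762 of 25S lies 2 positions from C2764. Its lowest centred value with CHX was 0.57 above its higher value without drug, and its rates were 0.479%, 0.521% and 0.528% with CHX at 10, 50 and 1000 µM against 0.293% with no addition and 0.357% with DMSO. For U1363 of 18S this gap was 0.29, with 0.274%, 0.308% and 0.280% with CHX against 0.267% and 0.256%. For C1599 of 18S it was 0.28, with 0.463%, 0.466% and 0.446% against 0.430% and 0.385%. The medians subtracted are part of these gaps, and without them the lowest CHX rate and the highest rate without drug were closest at U1363 (0.274% and 0.267%).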

How the results depend on the processing

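No paired analysis was possible because each dose has 1 library, and no library could be left out for the same reason. C2764 was lower in both steps under every alternative that held it; with A alone it and C959 are left out. The differences of C2764 (50 minus 10, 1000 minus 50, 1000 minus 10 µM) were -1.80, -1.65 and -3.45 with 0.0001 added, -0.60, -0.17 and -0.77 with 0.01 added, and -1.88, -1.11 and -2.98 after the rate without DMS was subtracted. In that subtraction values below 0 were set to 0. At 1000 µM C2764 therefore had the added constant alone, and -1.11 and -2.98 depend on that constant. The first 2 differences of C2764 were -1.33 and -1.06 with no filter, its first and last -1.30 and -2.34 without centring, and its last -2.35 with A and C centred apart. For C959 the sign turned with no filter (0.099, -0.069 and 0.030), without centring (0.12, -0.042 and 0.083), and at 1000 minus 10 µM with a 2% filter (0.0014) and with A and C centred apart (0.068). Its first step without centring (0.124) and its second with A and C centred apart (0.123) were past 0.1, and so not constant. With no filter the library medians differed by 0.025 and 0.028 in the first and second step, the second with its sign turned. The count higher by 1.5-fold at 1000 over 10 µM was 2 with 0.0001 added and without centring, 4 with no filter, 3 after subtraction, and 0 with 0.01 added, a 2% filter, bins of rate, A alone, A and C apart, or 2-fold. The lower count at 1000 over 50 µM was 0 with 0.01 added, A alone and 2-fold, and 2 after subtraction. At 50 over 10 µM the lower count was 0 with A alone and 2 after subtraction, and the higher count was 1 with no filter and after subtraction. At 1000 over 10 µM the lower count was 0 with A alone and 3 after subtraction. Counts after subtraction can include modified bases whose rates lie near those without DMS. A1782, at 11.0% without DMS, had 12.04% at 50 µM and 10.4% at 1000 µM, and so was set to 0 at 1000 µM. At 1.2-fold the counts were 15 lower and 11 higher, then 3 and 2, and 9 and 15 for 1000 over 10 µM. Lower in both steps were 1 with 0.01 added, without centring and with a step of 0.2, 36 with no filter, 2 with a 2% filter or bins, 9 after subtraction and 28 with a step of 0.05. Higher in both were 13 with 0.0001 added, bins or the median difference, 0 with 0.01 added, 26 with no filter, 3 with a 2% filter, 39 with a step of 0.05 and 1 with a step of 0.2. Without centring 9 were higher in both, and 4 of them were among the 7 named above. Constant in both were 339 with 0.01 added, 720 with no filter, 120 with a 2% filter, 104 without centring, 54 with a step of 0.05 and 403 with a step of 0.2. The alternatives with A and C centred apart and with the median difference were chosen after seeing the data. Read depth is unknown, so what depth limits cannot be stated.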

Other observations

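Outside the tested set, 319 nucleotides had at least 0.3% at some CHX dose, and 3 of them differed by at least 1.5-fold between 10 and 1000 µM. Among the 514 tested, 0.195% were lower and 0.195% higher by that size. The 3 have rates below those of the tested bin from 0.5 to 1%. Without C2764, that bin had the widest SD between 10 and 1000 µM, 0.16 against 0.05 above 20%. C1796 of 18S, near the 3′ end of the rRNA, had 0.112%, 0.236% and 0.338%. A2255 of 25S, in helix 69 between the subunits, had 0.173%, 0.306% and 0.392%. C2552 of 25S had 0.317%, 0.317% and 0.194%. At C1796 and A2255 the 10 µM rate was below both libraries without drug, which had 0.316% and 0.239% at C1796 and 0.383% and 0.211% at A2255. At C2552 it was the 1000 µM rate that was below both, which had 0.271% and 0.3002%.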
